A study of Rattus norvegicus with 6 samples.

Results

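Wnt, Notch, BMP and TGF-beta signalling genes were examined in AR42J, a cell line from a rat tumour of the exocrine pancreas, after dexamethasone. The genes were chosen by their platform symbols, which had to begin with the names of Wnt ligands, Frizzled receptors, secreted Frizzled-related proteins, R-spondin receptors, axins, Dishevelled proteins, beta-catenin and its partners, TCF/LEF factors, Notch receptors and ligands, BMPs, GDFs, TGF-betas, activin and inhibin subunits, their receptors, Smads or Id proteins. Where several probe sets carried 1 gene, the one brightest on average (mean of log2 values) stood for it. This gave 78 genes of 10411 on the array, from 105 probe sets, and 1 further probe set carried several gene symbols (Gdf1 and Cers1) and was left unnamed.

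The dexamethasone group was 3 cultures kept for 48 h in medium with 5% serum and 100 nM dexamethasone, a synthetic glucocorticoid. The control group was 3 cultures kept in the same medium without it. All cultures came from frozen stocks of this 1 cell line at passage 29, were first plated for 24 h in 20% serum, and were prepared as 3 pairs of a dexamethasone and a control culture in 3 runs over 5 months. An Affymetrix Rat 230A array measured the total RNA of each culture, and values are MAS5 signals, a linear brightness per probe set that the array's own scaling makes relative to its total.

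All 3 pathways carry signals from secreted or membrane-bound proteins to the nucleus. In the Wnt pathway, ligand binding to Frizzled and LRP receptors stops a complex built on axin from destroying beta-catenin, which then acts with TCF/LEF factors on target genes. Notch receptors are cut when a Jagged or Delta ligand on a neighbouring cell binds them, and their inner part joins RBPJ on DNA. BMPs, TGF-betas and activins bind pairs of receptor kinases that phosphorylate Smad proteins, which enter the nucleus with Smad4. In the pancreas these pathways are known for their part in the choice between acinar, duct and progenitor states.

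Of the 78 genes, 50 were bright enough to be tested, which needed a mean log2 signal equal to at least 147.6. Dexamethasone lowered 12 of them and raised 3 at an adjusted p under 0.05 by limma, and 35 did not pass. The share called was 30.0%, against 38.4% of all 7051 genes tested and 37.1% of all 9520 probe sets tested. By direction, 24.0% were lower against 21.4% of all genes, and 3 of 50 were higher against 17.0%. At least 2-fold changes were found in 4 that fell (Lgr5, Jag1, Axin2 and Smad2) against 6.58% of all genes, and in 2 that rose (Wnt4 and Tgfb3) against 5.38%. Groups did not overlap for 21 of the 50, or 42.0%, against 51.0% of all genes. Their median log2 change was -0.26, against -0.04 over all genes tested. Levels are per culture, so fewer cells with a transcript and less of it per cell cannot be told apart.

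**Figure D1:**
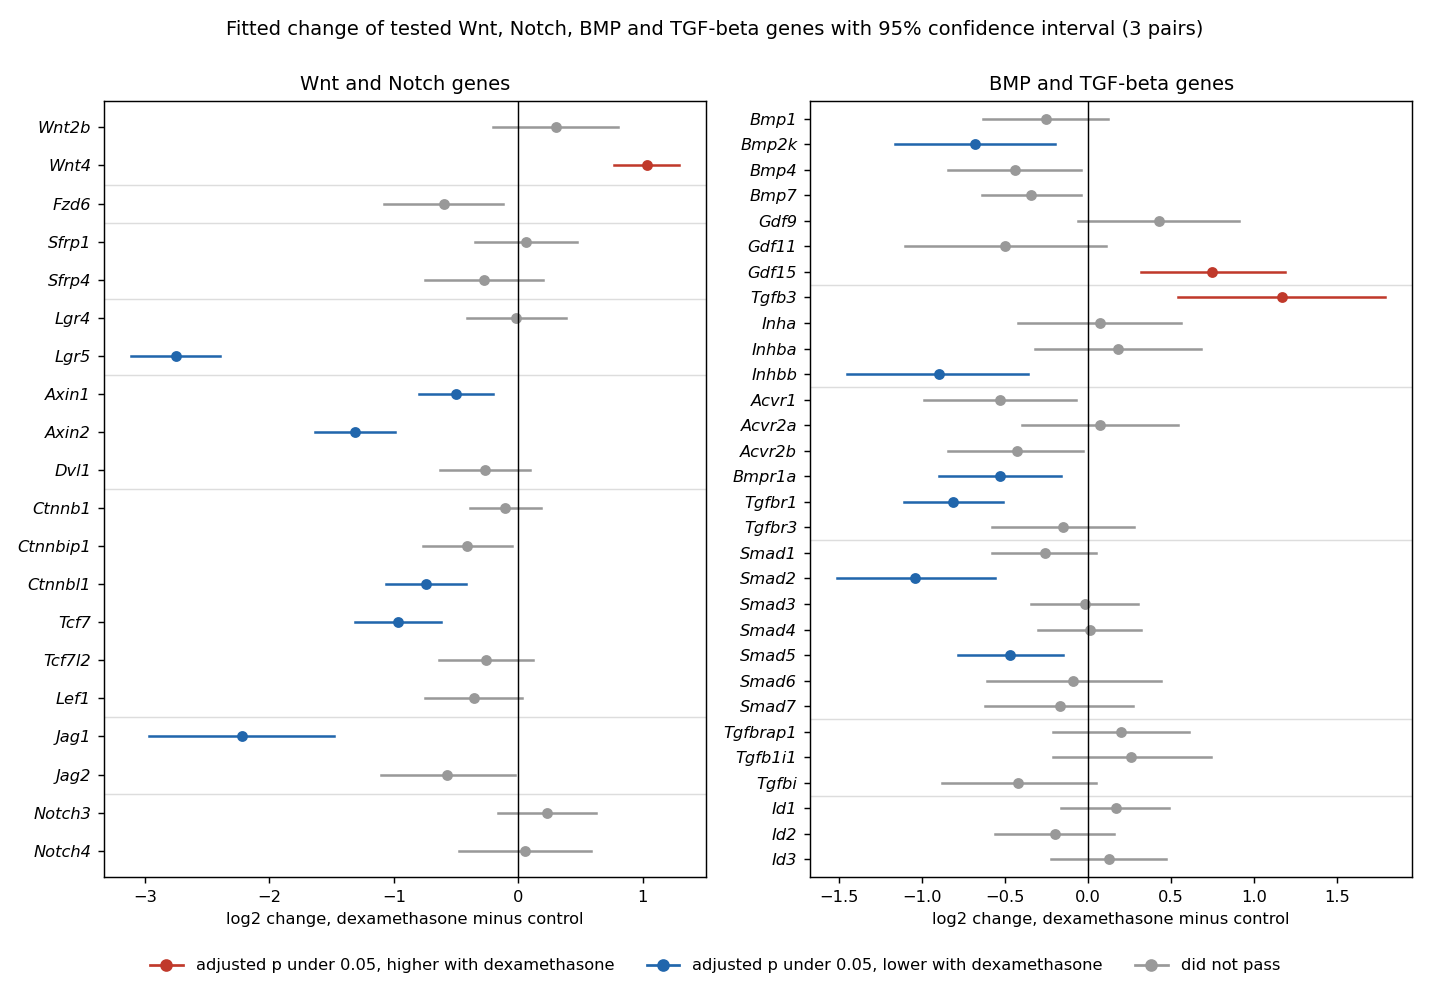
Log2 change (dexamethasone minus control, x axis) of the 50 tested genes, in order of their roles down the page, with bars for the 95% confidence interval from limma (3 pairs of cultures). Lgr5 and Jag1 lie farthest to the left, at -2.75 and -2.22, while Wnt4, Tgfb3 and Gdf15 are the 3 that passed to the right of 0.

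Overall signal was alike on the arrays, but their scaling sets this, so it is no check on them. Between 68.3% and 72.7% of probe sets in dexamethasone arrays and between 71.3% and 79.5% in control arrays exceeded the array's background level, defined as the brightest of 27 control probe sets for bacterial genes. That level was 83.7 to 115.9 in dexamethasone arrays and 51.7 to 97.3 in control arrays. The ratio of 3′ to 5′ signal for beta-actin, a sign of RNA quality, was 1.19 to 1.69 in dexamethasone arrays and 1.27 to 1.5 in control arrays. Dexamethasone 3 stood apart from the other treated arrays on the second principal component (25.3 against -11.6 and -12.6), and without it 14 of the 50 genes were lower and 3 higher. Acinar markers fitted the label, since 7 of 7 were above background on all 6 arrays, with a summed signal of 87519 to 96414 with dexamethasone and 53800 to 66571 in control cultures. Each rose except Cpa1, which did not pass. Cpa1 measured 18792, 19212 and 13144 with dexamethasone, against 18825, 22341 and 17981 in control cultures. The duct markers on the array, Krt19 and Krt7 (2 of 5 listed), both fell, with a summed signal of 573.3 to 1949.9 with dexamethasone, lowest in dexamethasone 3, and 2709.8 to 3797 in control cultures. Their part in the results below was not tested. Summed stromal markers (8 of 8 on the array) spanned 1168 to 1249 with dexamethasone and 1034 to 1315 in control cultures. Immune markers (5 of 5) spanned 435.2 to 502.2 with dexamethasone and 356.6 to 384.4 in control cultures. Only 1 of them was above background on all treated arrays and 2 on all control arrays. Csf1r, the 1 bright enough to test, did not pass, and the difference between these sums was not tested. Endothelial markers (3 of 5) spanned 334.8 to 434.7 with dexamethasone and 192.3 to 248.7 in control cultures. Of them Pecam1 rose, and it alone was above background on all 6 arrays. Neuroendocrine markers (5 of 5) spanned 7781 to 11812 with dexamethasone, highest in dexamethasone 3, and 7059 to 7972 in control cultures. Of them Chgb rose, while Chga, Syp and Ins1 did not pass. Chga measured 2117.4, 2207.5 and 4577.9 with dexamethasone, against 2701.3, 3220.1 and 3163.1 in control cultures. Lum, Kdr, Ptprc and Gcg were above background on no array.

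Among Wnt ligands, dexamethasone raised Wnt4, and no other ligand passed. Wnt4, a secreted glycoprotein with roles in kidney, gonad and mammary development, had signals of 7828, 7618 and 7237 with dexamethasone, against 3364, 4475 and 3358 in control cultures. Every treated culture exceeded every control, a 2.04-fold rise (log2 change 1.03 ± 0.11, adjusted p = 0.000182). Its promoter is shown because it is the brightest of the 3 genes that rose. The 300 bases run from 250 before to 50 after the annotated start (RefSeq, GRCr8, chr5:154797200-154797499, plus strand), and no capitals appear because neither motif described below occurs in it.
Wnt4: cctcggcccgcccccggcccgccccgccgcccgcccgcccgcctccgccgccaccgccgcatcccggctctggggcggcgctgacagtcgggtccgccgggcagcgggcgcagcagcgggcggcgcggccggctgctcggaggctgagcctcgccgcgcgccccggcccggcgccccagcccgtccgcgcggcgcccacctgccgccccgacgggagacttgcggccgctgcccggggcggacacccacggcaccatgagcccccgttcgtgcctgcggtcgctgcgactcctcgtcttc

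Wnt2b, the other ligand bright enough to test, had signals of 719.1, 461.7 and 561.4 with dexamethasone, against 590.6, 568.4 and 297.5 in control cultures. These groups overlapped, and the change was 0.30 with an interval of -0.20 to 0.80. Wnt5a, Wnt5b and Wnt6 were too dim to test, with signals between 9.4 and 99.1 with dexamethasone and between 21.1 and 97.7 in control cultures.

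R-spondin receptors strengthen Wnt signalling by keeping Frizzled receptors on the cell surface. Lgr5, which marks stem cells of the intestine and is itself a target of beta-catenin, had the largest fall of the 50 genes. Its signals were 135.8, 111.5 and 160.5 with dexamethasone, against 965.1, 761.1 and 1013 in control cultures. The dexamethasone values lay above each array's background level, and the groups were far apart, a 6.74-fold fall (-2.75 ± 0.16, adjusted p = 4.0e-06). Lgr4, its broadly expressed relative, had signals of 539.5, 575.1 and 593.3 with dexamethasone, against 719.6, 452.3 and 587.0 in control cultures. Here the groups overlapped and the change was -0.02 with an interval of -0.41 to 0.38. Whether Lgr5 and Lgr4 differed in their response was not tested. The third receptor, Lgr6, was too dim to test, at 170.4, 130.5 and 182.9 with dexamethasone, against 104.7, 98.4 and 152.2 in control cultures.

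Of 4 Frizzled genes, the receptors of Wnt ligands, only Fzd6 was tested. It measured 265.7, 155.7 and 150.4 with dexamethasone, against 308.6, 230.5 and 304.8 in control cultures, lower in each pair but short of the threshold (-0.60 ± 0.21, adjusted p = 0.0532). Fzd6 passed with a pseudocount, with no intensity trend and with scaling to the hybridization controls. Fzd2 was below the filter but above background in every control culture and in no treated one, at 47.4, 81.8 and 6.4 with dexamethasone, against 167.0, 225.8 and 123.9 in control cultures, at least 1.69-fold lower. Without the filter on dim probe sets its adjusted p by limma was 0.0214. The signals of Fzd1 and Fzd4 were between 75.4 and 131.0 with dexamethasone and between 32.6 and 110.5 in control cultures. Secreted Frizzled-related proteins, which bind Wnt ligands outside the cell, did not pass: Sfrp1 changed by 0.06 with an interval of -0.35 to 0.47, and Sfrp4 by -0.28 with an interval of -0.75 to 0.20. Sfrp2 was too dim to test, at 137.3, 148.5 and 164.2 with dexamethasone, against 117.9, 134.2 and 99.6 in control cultures.

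Both axins fell. Axin2, a scaffold of the destruction complex that beta-catenin itself induces as a negative feedback, had signals of 383.8, 270.2 and 393.4 with dexamethasone, against 956.9, 674.4 and 961.0 in control cultures. All treated values lay below all control values, a 2.48-fold fall (-1.31 ± 0.14, adjusted p = 0.000149). Axin1, the constitutive scaffold, had signals of 752.4, 574.8 and 668.9 with dexamethasone, against 1085, 867.4 and 870.5 in control cultures. Its groups also did not overlap, with a smaller change (-0.50 ± 0.13, adjusted p = 0.018), which missed the threshold after 75th percentile centring (adjusted p = 0.0535 by limma) and when pair 1 or pair 2 was left out. Dvl1, which relays the signal from Frizzled, changed by -0.27 with an interval of -0.63 to 0.09, and Dvl2 was too dim to test.

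Tcf7, which encodes the DNA-binding partner TCF1, fell 1.96-fold. Its signals were 283.6, 268.0 and 391.5 with dexamethasone, against 594.3, 546.6 and 685.1 in control cultures, with no overlap (-0.97 ± 0.15, adjusted p = 0.00133). The related factors did not pass: Lef1 changed by -0.36 with an interval of -0.75 to 0.03, and Tcf7l2 by -0.26 with an interval of -0.64 to 0.12. Tcf7l1, often a repressor, was below the filter, at 224.5, 167.9 and 181.0 with dexamethasone, against 51.9, 161.4 and 110.3 in control cultures. Every treated value of Tcf7l1 exceeded every control value, without a call when the filter was removed (adjusted p = 0.147).

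The promoters of Axin2 and Tcf7 are shown as those of Wnt genes that fell and whose windows hold the core of the TCF/LEF site. This core was searched as CTTTGA or CTTTGT on both strands and is printed in capitals. Bmpr1a, Smad5 and Tgfbr1, which also fell, hold 3, 2 and 1 matches and are not printed. The window is again 250 bases before to 50 after the start (RefSeq, GRCr8). That of Axin2 lies at chr10:94398535-94398834, plus strand, with 2 matches. That of Tcf7 lies at chr10:36954230-36954529, minus strand, with 1 match.
Axin2: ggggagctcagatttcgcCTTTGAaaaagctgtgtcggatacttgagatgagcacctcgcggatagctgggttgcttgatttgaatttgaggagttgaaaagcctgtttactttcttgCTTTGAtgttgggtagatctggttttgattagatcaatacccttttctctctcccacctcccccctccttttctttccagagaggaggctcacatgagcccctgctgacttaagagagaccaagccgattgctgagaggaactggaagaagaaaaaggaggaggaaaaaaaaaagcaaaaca
Tcf7: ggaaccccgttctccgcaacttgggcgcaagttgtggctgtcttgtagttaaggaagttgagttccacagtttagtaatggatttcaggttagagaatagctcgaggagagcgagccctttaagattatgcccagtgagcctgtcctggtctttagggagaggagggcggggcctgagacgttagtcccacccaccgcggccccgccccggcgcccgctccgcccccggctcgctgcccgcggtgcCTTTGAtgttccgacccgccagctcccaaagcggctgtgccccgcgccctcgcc

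A promoter was given for 65 of the 78 genes, Lgr5 not among them. The TCF/LEF core was found in 12 of the 65, or 18.5%, below the 30.9% of all 27457 promoters. By call, it was found in 5 of 10 promoters of genes that fell and in 5 of 28 of genes that did not pass. A short glucocorticoid receptor motif, searched as TGTTCT on both strands, was found in 9 of the 65, or 13.8%, against 20.1% of all promoters, with 2 of 10 for genes that fell and 5 of 28 for genes that did not pass. Wnt4, Tgfb3 and Gdf15, the genes that rose, had neither in their windows. The median G and C content was 65.0% in the 65 promoters and 52.3% in all. CTTTGT and TGTTCT can overlap, since the first ends and the second begins with TGT. Matches of so short a motif describe letters and no measured binding.

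Ctnnb1, the gene of beta-catenin, differed by probe set. The brightest, used here, had signals of 7427, 7415 and 7679 with dexamethasone, against 6258, 9669 and 8759 in control cultures. Control 1 lay below all treated values and the other controls above them, and the change was -0.11 with an interval of -0.39 to 0.18. A second probe set changed by -0.25 ± 0.10, adjusted p = 0.0919. The third passed the threshold (-0.67 ± 0.13, adjusted p = 0.00393), with signals of 1467, 1112 and 1199.5 with dexamethasone, against 2409, 1509.6 and 2165 in control cultures. With quantile normalization the brightest probe set also passed (-0.32, adjusted p = 0.0438), so the probe sets and settings did not give 1 answer for this gene. Ctnnbip1, an inhibitor that blocks beta-catenin from TCF, also differed in sign between its tested probe sets (-0.41 and 0.21), and neither passed. Ctnnbl1, named for its likeness to beta-catenin but known as a partner of the splicing machinery, had signals of 814.8, 724.3 and 666.5 with dexamethasone, against 1139, 1385 and 1154 in control cultures, all lower with dexamethasone (-0.74 ± 0.14, adjusted p = 0.00388).

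**Figure D2:**
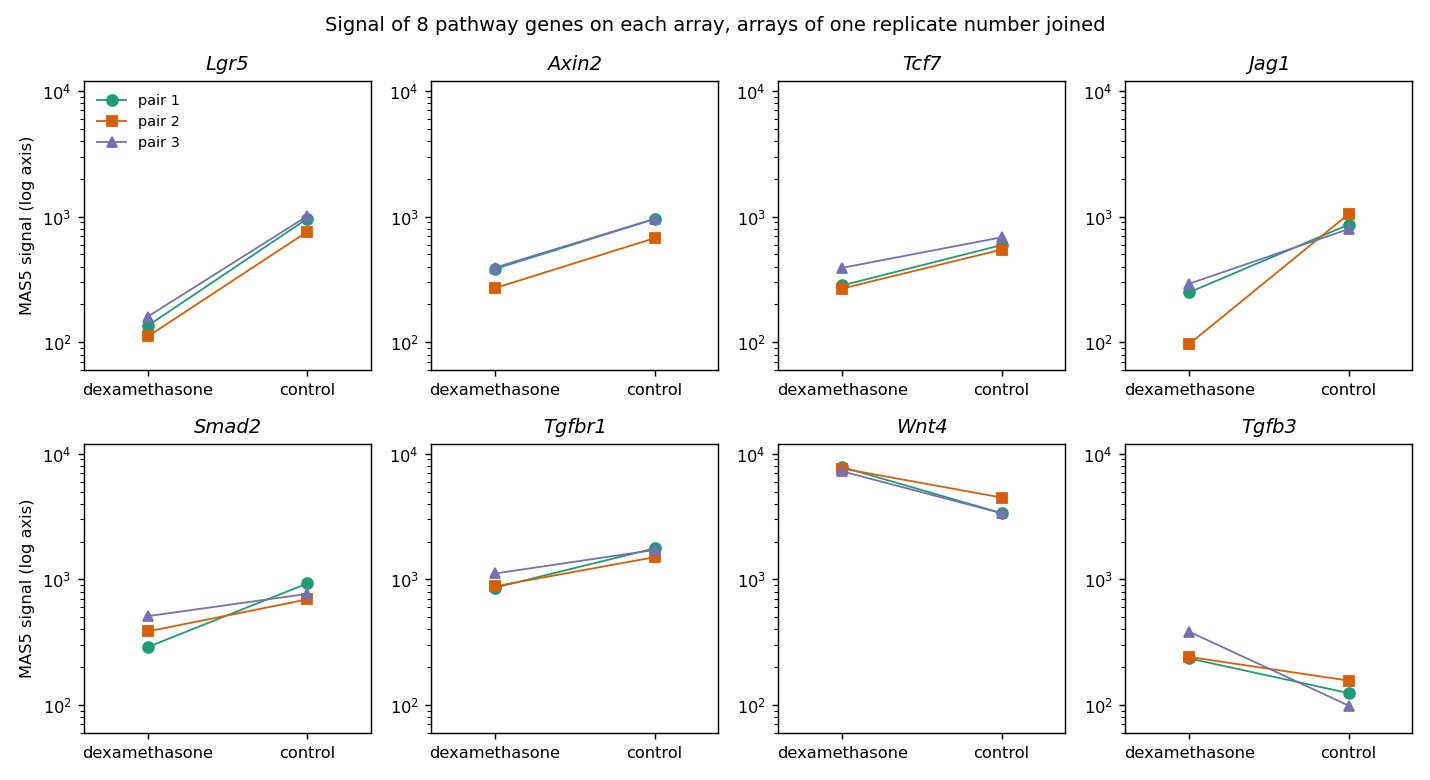
MAS5 signal (y axis, log scale) of 8 genes on each array, dexamethasone at left and control at right, with lines joining the arrays of each pair. Lgr5, Axin2, Tcf7, Jag1, Smad2 and Tgfbr1 were lower with dexamethasone in all 3 pairs, and Wnt4 and Tgfb3 were higher in all 3.

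Jag1 carried the change among Notch genes. It encodes a membrane ligand of Notch receptors, and its signals were 250, 97.1 and 292.7 with dexamethasone, against 864.9, 1049 and 796.9 in control cultures. Dexamethasone 2 was the lowest of the treated arrays, close to its background level of 83.7. All treated values were below every control, a 4.67-fold fall (-2.22 ± 0.33, adjusted p = 0.000953). The log2 change was -1.62 without replicate 2, with adjusted p = 0.00231 by limma. Jag2, the other Jagged ligand, had signals of 82.7, 193.3 and 167.0 with dexamethasone, against 154.4, 203.1 and 276.1 in control cultures. It was lower in each pair, but the groups overlapped and the change did not pass (-0.57 ± 0.24, adjusted p = 0.0929). The Delta-like ligands Dll1 and Dll3 were too dim to test. Dll3, above background on 1 treated array and no control array, had signals of 39.9, 115.8 and 105.3 with dexamethasone, against 28.1, 59.9 and 28.3 in control cultures. Its groups overlapped, and with most treated values also below background no minimum rise can be given. Removing the filter gave no call (adjusted p = 0.106 by limma).

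Notch receptors showed no call. Notch3 had signals of 304.5, 359.6 and 344.1 with dexamethasone, against 281.6, 335.9 and 246.3 in control cultures, a change of 0.23 with an interval of -0.16 to 0.62. Notch4 changed by 0.05 with an interval of -0.48 to 0.58. Notch1 lay below the filter, at 141.1, 95.8 and 143.1 with dexamethasone, against 81.0, 110.1 and 87.2 in control cultures, and Notch2 was at or under 13.9 on all 6 arrays, below background.

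The pathway's other genes, from lists drawn up with earlier results of these data known, did not all move with Jag1. Of 10 tested genes of the Notch transcription complex and its targets, 4 fell, 2 rose and 4 did not pass, or 60% called against 38.4% of all genes. Rbpj, the DNA-binding partner of the cut receptor, had signals of 292.6, 303.8 and 223.5 with dexamethasone, against 616.0, 458.0 and 575.6 in control cultures, without overlap (-1.01 ± 0.19, adjusted p = 0.00315). Hes1, a transcriptional repressor and classic Notch target, went the other way, with signals of 912.3, 632.8 and 769.3 with dexamethasone, against 258.6, 226.8 and 256.7 in control cultures. Its lowest treated value was above its highest control, the only gene of the other pathway lists called higher by at least 2-fold (1.63 ± 0.15, adjusted p = 7.7e-05). Hes6, which opposes Hes1, measured 1251, 1187 and 958.6 with dexamethasone, against 2598, 1771 and 2674 in control cultures and fell (-1.04 ± 0.17, adjusted p = 0.00167). The co-repressor deacetylases Hdac1 and Hdac2, which serve many other complexes too, fell by 1.44 and 1.16 on the log2 scale. The acetyltransferase Kat2b rose by 0.77, while the co-repressors Ncor1 (-0.19) and Spen (0.26) did not pass. Among 14 tested genes of Notch processing, 2 rose, 2 fell and 10 did not pass, or 28.6% called, below the 38.4% of all genes. Furin, a protease that matures the receptor, rose (0.73 ± 0.12, adjusted p = 0.00191) and Adam10, which makes the first cut after ligand binding, fell (-0.58 ± 0.14, adjusted p = 0.0109). The gamma-secretase subunits Psenen, Ncstn and Aph1a did not pass, at 0.30, 0.25 and -0.02. The catalytic subunit Psen2 rose by 0.55 (adjusted p = 0.0419) and Neurl1, a ubiquitin ligase, fell by 0.58 on the log2 scale (adjusted p = 0.032), and neither passed with no replicate block, with no filter, or without replicate 2 or 3. Psen2 also missed the threshold with scaling to the hybridization controls and without replicate 1, as did Neurl1 with quantile normalization and 75th percentile centring.

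TGF-beta family ligands moved in both directions. Tgfb3, 1 of the 3 TGF-beta ligands, had signals of 234.7, 241.4 and 383.3 with dexamethasone, against 124.4, 156.4 and 98.9 in control cultures. The groups did not overlap, a 2.24-fold rise with dexamethasone 3 the highest (1.17 ± 0.27, adjusted p = 0.0103). Tgfb1 was at or under 8.2 on all 6 arrays, below background, and Tgfb2 was too dim to test, at 188.4, 76.1 and 119.9 with dexamethasone, against 59.7, 120.8 and 88.7 in control cultures. Inhbb, the beta B subunit of activins and inhibins, had signals of 108.1, 180.2 and 75.1 with dexamethasone, against 234.0, 244.1 and 167.8 in control cultures. It was lower in each pair, although dexamethasone 2 lay above control 3 and dexamethasone 3 was below background (-0.90 ± 0.24, adjusted p = 0.0171), and it missed the threshold without replicate 1 (adjusted p = 0.106) and without dexamethasone 3 (adjusted p = 0.109, fitted with no block). The partner subunits did not pass: Inha changed by 0.07 with an interval of -0.42 to 0.56, and Inhba by 0.18 with an interval of -0.32 to 0.68. Inhbc and Inhbe were too dim to test.

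Gdf15, a distant family member secreted by stressed cells, rose 1.68-fold. Its signals were 268.6, 288.2 and 234.3 with dexamethasone, against 154.1, 159.6 and 154.4 in control cultures, with every treated value above every control (0.75 ± 0.19, adjusted p = 0.0149). Scaling to the hybridization controls (adjusted p = 0.0658) or leaving out pair 1 or pair 2 ended this call. Gdf9, known from the oocyte, had signals of 222.3, 165.8 and 167.4 with dexamethasone, against 151.4, 139.6 and 119.7 in control cultures, which did not overlap but did not pass (0.43 ± 0.21, adjusted p = 0.15), and Gdf11 changed by -0.50 with an interval of -1.10 to 0.11.

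BMP ligands gave no call. Bmp7 had signals of 1394, 1202 and 1342 with dexamethasone, against 1502, 1738 and 1743 in control cultures. All treated values were below all controls, yet the change missed the threshold (-0.34 ± 0.13, adjusted p = 0.0713). Bmp4 showed the same order at 288.2, 254.5 and 231.5 with dexamethasone, against 348.1, 324.4 and 375.4 in control cultures (-0.44 ± 0.17, adjusted p = 0.079). Bmp2, Bmp3, Bmp6 and Bmp15 were too dim to test. Bmp1, a procollagen protease in spite of its name, changed by -0.25 with an interval of -0.63 to 0.12. Bmp2k, a kinase first found as induced by BMP2, had signals of 98.8, 136.1 and 132.6 with dexamethasone, against 167.3, 216.7 and 201.8 in control cultures, with dexamethasone 1 below background, and fell (-0.68 ± 0.21, adjusted p = 0.0343). Centring on the 75th percentile, dropping the filter or leaving out any pair ended that call.

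Among receptors, Tgfbr1 fell on both of its probe sets. It encodes the type I kinase receptor of TGF-beta, and the brighter probe set had signals of 858.8, 881.6 and 1113 with dexamethasone, against 1765, 1501 and 1714 in control cultures. The groups did not overlap, a 1.75-fold fall (-0.81 ± 0.13, adjusted p = 0.00174). On the dimmer probe set the signals were 214.2, 190.2 and 269.8 with dexamethasone, against 364.7, 433.3 and 440.1 in control cultures (-0.89 ± 0.18, adjusted p = 0.00486). Bmpr1a, a type I BMP receptor, had signals of 324.0, 300.2 and 320.9 with dexamethasone, against 402.0, 510.5 and 458.7 in control cultures and fell 1.44-fold (-0.53 ± 0.16, adjusted p = 0.0329). Quantile normalization, 75th percentile centring, dropping the filter or leaving out pair 2 or 3 ended the Bmpr1a call. The activin receptors Acvr1 (-0.53 ± 0.20, adjusted p = 0.0688) and Acvr2b (-0.43 ± 0.18, adjusted p = 0.09) had all treated values below all controls without passing. Acvr2a changed by 0.07 with an interval of -0.40 to 0.54, and Tgfbr3, a co-receptor, by -0.15 with an interval of -0.58 to 0.28. Acvr1c, Acvrl1 and Bmpr2 were too dim to test, and Tgfbr2 was not analysed here.

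Smad2 and Smad5 fell among 7 tested Smads, and this 28.6% called was below the 38.4% of all genes. Smad2, which TGF-beta and activin receptors phosphorylate, had signals of 290.0, 385.2 and 509.9 with dexamethasone, against 928.0, 693.2 and 767.0 in control cultures. Dexamethasone 1 was lowest and dexamethasone 3 highest of the treated arrays, all below the controls, a 2.05-fold fall (-1.04 ± 0.21, adjusted p = 0.00502). Its close relative Smad3 had signals of 1248, 1024 and 1258 with dexamethasone, against 1195, 1264 and 1112 in control cultures. Those groups overlapped, with a change of -0.02 with an interval of -0.34 to 0.30 and 0.11 on its other tested probe set. The 95% intervals of Smad2 (-1.51 to -0.56) and Smad3 did not overlap, but the difference between their changes was not tested.

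Smad5, a BMP Smad, had signals of 623.4, 611.3 and 721.2 with dexamethasone, against 967.8, 830.8 and 902.0 in control cultures (-0.47 ± 0.14, adjusted p = 0.0275), and its other tested probe set fell by 0.77 on the log2 scale (adjusted p = 0.0215). A further Smad5 probe set, too dim to test, measured 128.7, 96.1 and 116.2 with dexamethasone, against 123.8, 94.1 and 115.4 in control cultures. On the brightest probe set the threshold was missed after quantile normalization or 75th percentile centring and when pair 1 or 2 was left out. Smad1, also a BMP Smad, changed by -0.26 with an interval of -0.58 to 0.05. Smad4, the partner shared by all branches, differed by probe set. The brighter had signals of 1089, 875.1 and 907.4 with dexamethasone, against 968.9, 841.5 and 1047 in control cultures, a change of 0.01 with an interval of -0.30 to 0.32. The dimmer had signals of 469.7, 460.7 and 586.0 with dexamethasone, against 743.6, 762.9 and 744.3 in control cultures, all lower with dexamethasone (-0.58 ± 0.15, adjusted p = 0.0148). The inhibitory Smad6 and Smad7 changed by -0.09 with an interval of -0.61 to 0.44 and -0.17 with an interval of -0.62 to 0.27, and Smad9 was too dim to test.

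Id proteins block basic helix-loop-helix transcription factors and are induced by BMP signals. Id1 had signals of 2105, 1792 and 3426 with dexamethasone, against 2038, 1916 and 2346 in control cultures. Dexamethasone 3 was above all other arrays, while dexamethasone 2 was below all controls (0.17 with an interval of -0.16 to 0.49). Id3 showed the same order of treated arrays, at 828.4, 599.3 and 1089 with dexamethasone, against 665.7, 690.8 and 906.3 in control cultures (0.13 with an interval of -0.22 to 0.47). For Id2 the brighter probe set did not pass, at 2885, 2982 and 2460.1 with dexamethasone, against 2349, 4260.1 and 3219 in control cultures (-0.20 ± 0.16, adjusted p = 0.356). Without replicate 1 it passed (-0.45, adjusted p = 0.0366 by limma). The other Id2 probe set had all treated values below all controls, at 1499, 1164 and 1406 with dexamethasone, against 2300.1, 2559 and 2635 in control cultures, and passed (-0.89 ± 0.13, adjusted p = 0.00104). Id4 was above background on 1 control array and no treated one. Of the genes named for TGF-beta, Tgfbi, a matrix protein, changed by -0.42 with an interval of -0.88 to 0.05, Tgfb1i1, a focal adhesion protein, by 0.26 with an interval of -0.21 to 0.74, and Tgfbrap1, a vesicle tethering protein, by 0.20 with an interval of -0.21 to 0.61.

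**Figure D3:**
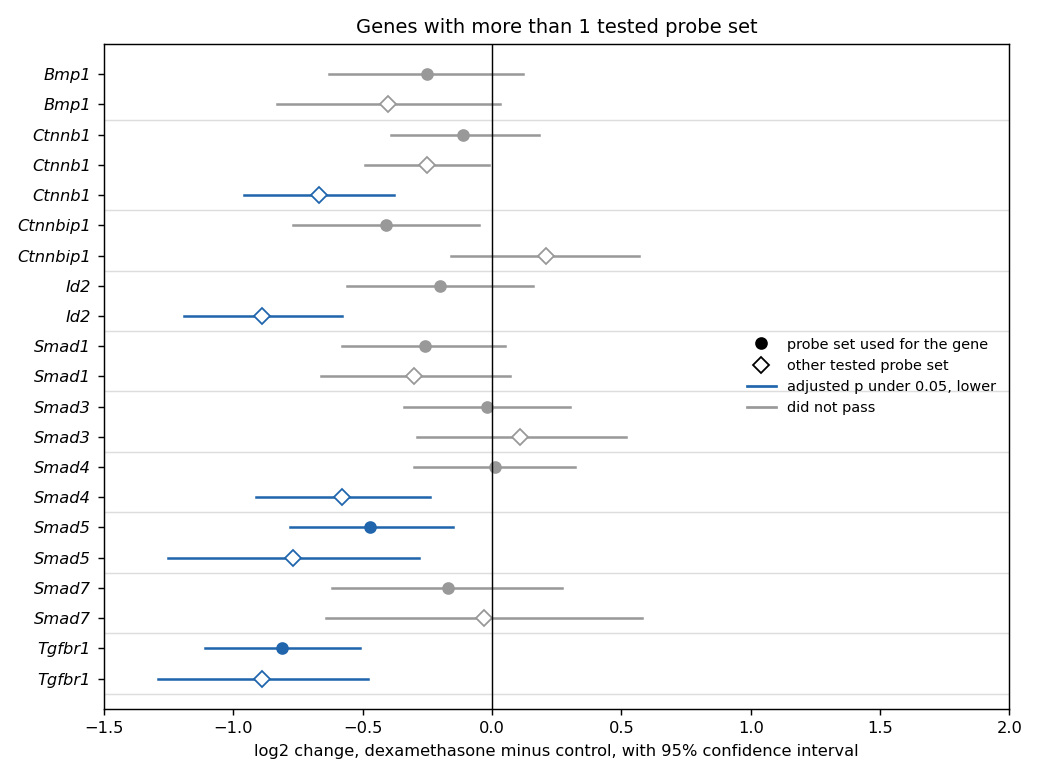
Log2 change (dexamethasone minus control, x axis) with 95% confidence intervals for the 10 genes that had more than 1 tested probe set. Filled circles mark the probe set used for the gene and open diamonds the others, of which 3 of 11 (for Ctnnb1, Id2 and Smad4) were lower at an adjusted p under 0.05 where the one used was not.

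Of the 78 genes, 28 were too dim to test, with signals of 5.3 to 224.5 with dexamethasone and 4.8 to 225.8 in control cultures. Of these, 8 were above background on no array and 5 on all 6. Not named so far, Gdf10 was among them. The tested share of 64.1% was close to the 67.7% of all genes.

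Other Wnt pathway genes included some of the largest falls. The lists for all 3 pathways were drawn from general knowledge, but with earlier results of these data known. Their shares called therefore describe these lists and are not independent evidence. Among 10 tested Wnt target genes, 6 fell, 1 rose and 3 did not pass, a share called of 70.0% against 38.4% of all genes. Their median log2 change was -0.67, against -0.04 over all genes. Nkd1, a feedback inhibitor that binds Dishevelled, had signals of 510.7, 448.3 and 1478 with dexamethasone, against 2658, 2116 and 3626 in control cultures. Array 3 was the highest in both groups, and the groups did not overlap (-1.97 ± 0.20, adjusted p = 0.000118). Sox4, a transcription factor, had signals of 1151, 999.1 and 953.2 with dexamethasone, against 3579.8, 3043 and 2981 in control cultures and fell (-1.63 ± 0.11, adjusted p = 1.2e-05). Ascl2, a stem cell factor of the intestine, fell to 611.0, 479.2 and 318.5 with dexamethasone, against 1025, 1249.9 and 1108 in control cultures (-1.31 ± 0.20, adjusted p = 0.00106). Birc5, which is also a gene of mitosis, fell by 2.04 on the log2 scale, Efnb1, a membrane ligand of Eph receptors, by 0.80 and Met, a receptor kinase, by 0.53, the last with overlapping groups and no call under 6 of the alternatives, no replicate block among them. Myc rose (0.65 ± 0.13, adjusted p = 0.00442), and Jun and Tcf4 did not pass, at 0.05 and -0.18. Cd44, an adhesion receptor on the same list that was too dim to test, had signals of 200.3, 164.3 and 90.9 with dexamethasone, against 52.7, 54.8 and 49.2 in control cultures. No control array and 2 treated arrays were above background, and the groups did not overlap. The ratio to the control background was 2.22-fold. It takes the dexamethasone 3 value, itself below background, as measured, so it is not a strict minimum.

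Among 5 tested receptors, ligand processing genes and secreted inhibitors of the Wnt pathway, 2 fell and 3 did not pass, and this 40% was near the 38.4% of all genes. Wif1, a secreted inhibitor that binds Wnt ligands, had signals of 147.8, 208.0 and 243.2 with dexamethasone, against 963.6, 674.6 and 1692 in control cultures (-2.40 ± 0.22, adjusted p = 6.7e-05). Ptk7, a co-receptor of planar cell polarity, had signals of 78.1, 54.3 and 121.9 with dexamethasone, against 429.3, 533.9 and 571.7 in control cultures, with 1 treated array above background (-2.66 ± 0.24, adjusted p = 6.3e-05). The co-receptors Lrp6 and Ryk and the secreted Dkk3 did not pass, at -0.09, -0.05 and -0.18. Among 26 tested genes of the destruction complex and beta-catenin's partners, 7 fell, 1 rose and 18 did not pass, a share called of 30.8%, below the 38.4% of all genes. Apart from Nkd1, which both lists hold, the largest fall was in Ruvbl1, an ATPase of chromatin complexes, at 214.6, 189.4 and 191.1 with dexamethasone, against 529.6, 625.0 and 624.9 in control cultures (-1.58 ± 0.17, adjusted p = 0.000155). Tnks2, a tankyrase that marks axins for destruction, fell by 0.58 on the log2 scale, and the co-repressor Tle2 rose by 0.55, without a call under 5 of the alternatives. The co-repressor Tle5 and the kinase subunits Csnk1a1 and Csnk2b did not pass, at -0.07, -0.09 and -0.30.

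Outside the cell, 8 regulators of BMP and TGF-beta were tested, of which 4 fell, 1 rose and 3 did not pass, a share called of 62.5% against 38.4% of all genes. Ltbp4, which stores latent TGF-beta in the matrix, had signals of 84.9, 122.5 and 89.2 with dexamethasone, against 257.7, 337.6 and 162.2 in control cultures, with 1 treated array above background (-1.31 ± 0.24, adjusted p = 0.00296). Fbn1, a microfibril protein, fell by 0.82 on the log2 scale, Htra1, a secreted protease, by 0.50 and Twsg1, which binds BMPs, by 0.38. Htra1 did not pass without replicate 2. Twsg1 did not pass with 75th percentile centring, with no intensity trend, or when any replicate pair was left out. Bambi, a decoy receptor, did not pass (-0.33). Amhr2, the receptor of anti-Müllerian hormone, rose (0.71 ± 0.16, adjusted p = 0.00917), though not with scaling to the hybridization controls or without replicate 1. Of 20 tested Smad regulators and TGF-beta targets, 4 fell, 1 rose and 15 did not pass, a share called of 25.0%, below the 38.4% of all genes. Tgif1, a co-repressor of Smads, had signals of 713.7, 503.5 and 469.0 with dexamethasone, against 1434, 1479 and 1561 in control cultures (-1.43 ± 0.16, adjusted p = 0.000223). Stub1, a ubiquitin ligase with many substrates, had signals of 1119, 900.0 and 978.5 with dexamethasone, against 2732, 2700.0 and 2398 in control cultures (-1.39 ± 0.12, adjusted p = 5.3e-05). Fkbp1a, which binds and restrains type I receptors, fell by 0.60 on the log2 scale, Map3k7, a kinase of the non-Smad branch, by 0.43, and Cdkn1a, a cell cycle inhibitor, rose by 0.74. The Map3k7 call was lost under 6 alternatives. Strap and Tab2 did not pass, at -0.08 and -0.21. Over all lists, with each gene counted once, 28 of 92 tested genes fell and 8 rose, and the 39.1% called was near the 38.4% of all genes. Among list genes too dim to test, those above background on every control array and no treated one were Hes5, a Notch target (at least 1.31-fold lower), Tgif2, a Smad co-repressor (1.51-fold), and the planar polarity genes Vangl2 (1.1-fold) and Celsr2 (1.04-fold).

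The count of falls depended on how arrays were scaled. Scaled to the hybridization controls, 28 of the 50 genes were lower and 2 higher, so that 6.7% of calls were higher, against 20.0% with the deposited scaling. In the other lists 46 were then lower and 5 higher (9.8% of calls, against 22.2%). The median of all genes was -0.04 as deposited, 0.01 with quantile normalization, 0.08 with 75th percentile centring and -0.29 with the hybridization controls. Relative to it, the median of the 50 genes was -0.22 to -0.23 in all 4. Centring and the hybridization controls shift all probe sets of an array alike, so only quantile normalization could have changed this difference. Lgr5, Jag1, Axin2, Smad2, Tcf7, Tgfbr1 and Ctnnbl1 were called lower, and Wnt4 and Tgfb3 higher, in each of the 11 alternatives run.

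**Figure D4:**
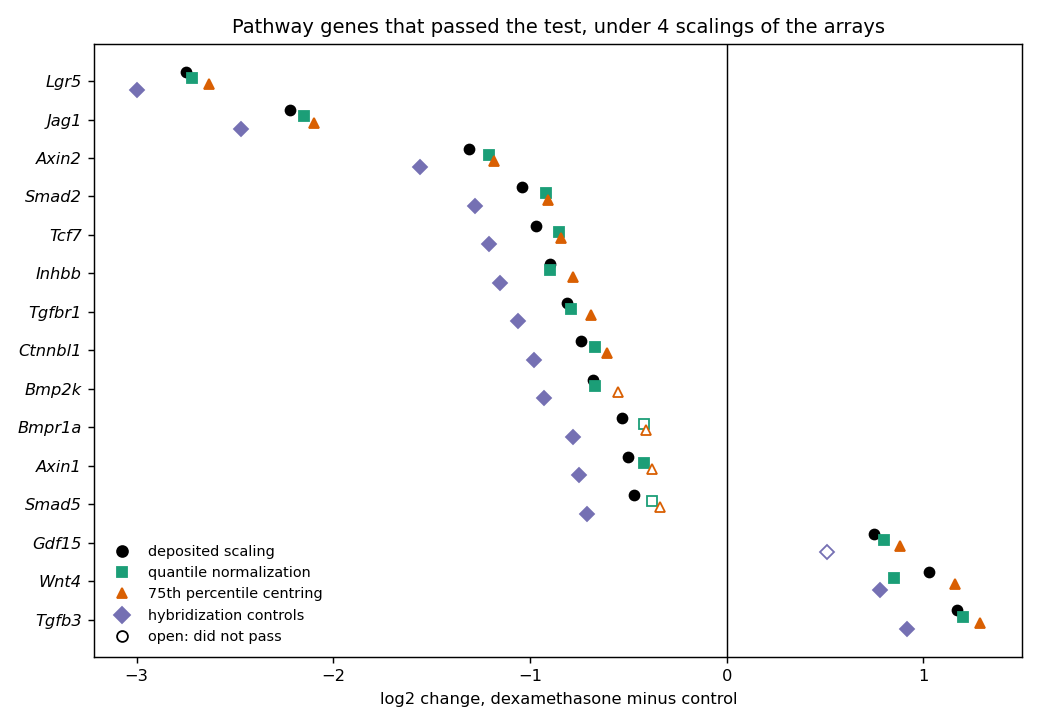
Log2 change (dexamethasone minus control, x axis) of the 15 genes that passed, with the deposited scaling and 3 others, open symbols marking an adjusted p of 0.05 or more. With 75th percentile centring Bmp2k, Bmpr1a, Axin1 and Smad5 did not pass, and with the hybridization controls Gdf15 did not.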

How the data were processed

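The deposited values are MAS5 signals, 1 intensity per probe set and array, for which the submitters' processing notes name GCOS and MAS5 as the authors' tools. No source used here gives their versions, scaling settings or masks. The mean signal after trimming 2% at each end was about 498 on every array, so a change in total RNA per cell cannot be seen, and the mismatch subtraction of MAS5 leaves low values noisy. Of 15923 probe sets, 57 were controls. The platform annotation, with symbols checked against the GRCr8 gene table, gave 12783 probe sets 1 symbol, 312 several and 2771 none. The 78 genes needed no update of a symbol.

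Log2 signals were used, with 0.1 in place of 4 zeros. The 9520 probe sets at or above the 40th percentile of mean log2 signal (147.6) were tested with limma 3.58.1 (R 4.3.3), using lmFit on treatment plus the replicate number as a block, eBayes with its trend on intensity, and p-values adjusted over these probe sets by Benjamini and Hochberg. Log2 changes are given ± SE. The block follows the series' design text, which calls the cultures independent pairs. Deviations from group means of same-numbered arrays correlated at -0.10, 0.11 and 0.21 for numbers 1 to 3. Those of differently numbered arrays correlated at -0.25 to 0.18, so these values do not single out the numbered pairs. That the numbers mark the pairs was assumed. Data with 9520 probe sets were simulated for the dexamethasone comparison. Changes of 1 and 2 (log2) were recovered in 40.3% and 82.1% of cases, those of 0.5 in 0% of cases, with 1 false call. Only 66 or 67 probe sets were changed per size there, against 3531 called in the data. The adjusted threshold was therefore stricter in the simulation, and its shares do not measure the power of the real comparison.

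Every gene that passed was named with its values or change, and shared effectors were named whatever they did. From the other lists, genes that changed by at least 1 (log2) and the brightest others, up to 4 per list, were named. Further genes making up a small count of calls, and Efnb1, were chosen for naming once their values were known. The alternatives were 3 other scalings, no filter, a pseudocount of 83.9, no intensity trend, no replicate block, and leaving out each pair or dexamethasone 3. The genes and lists were chosen with earlier results of these data known, and 1 list entry that a synonym had matched to the wrong gene was removed after its value was seen. A gene at or below background on all arrays of 1 group and above it on all of the other is given as a bound. The bound is the brighter group's mean log2 against the dimmer group's mean of the higher of background and own signal. For Cd44 the same ratio is given but is not a bound. The p-values cover the spread between the pairs of 1 cell line, and 3 arrays a group limit the precision.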

Additional observations from a re-analysis of the deposited data

How the results depend on the processing

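Scaling to the hybridization controls moved the counts most: 778 probe sets were higher and 3257 lower, against 1512 and 2019 as deposited, 28 of the 50 genes were lower, and 5 genes of the other lists were higher and 46 lower, against 8 and 28. By construction it shifts all probe sets of an array alike. With 75th percentile centring, 2037 probe sets were higher and 1503 lower. Leaving out each replicate pair gave 8 to 10 of the 50 genes lower and 2 to 3 higher, and in the other lists 19 to 25 lower and 5 to 8 higher. Without the replicate block, 14 of the 50 genes were lower and 3 higher, and the pairing changed no call of these genes except those of Bmp7 (adjusted p = 0.0489) and Acvr1 (adjusted p = 0.0378), which then passed. Without dexamethasone 3, an alternative chosen after seeing the data and fitted with no block, 14 were lower and 3 higher, and Inhbb did not pass (-0.61, adjusted p = 0.109). The 15 genes that passed kept their direction in the 11 alternatives, and calls were lost for Axin1, Bmp2k, Bmpr1a, Gdf15, Inhbb and Smad5. Dropping the filter, the intensity trend or the replicate block leaves each log2 change as fitted, so direction could not turn under those settings. Among genes that did not pass, small changes turned in sign, and the cause was not tested. With hybridization control scaling these were Sfrp1 (-0.19), Notch3 (-0.02), Notch4 (-0.20), Inha (-0.18), Inhba (-0.07), Acvr2a (-0.17), Smad4 (-0.24), Tgfbrap1 (-0.05), Id1 (-0.08) and Id3 (-0.12). With 75th percentile centring they were Lgr4 (0.11), Ctnnb1 (0.02), Smad3 (0.10) and Smad6 (0.04), and with quantile normalization Lgr4 (0.11), Smad3 (0.02) and Smad6 (0.03). Without dexamethasone 3 they were Notch4 (-0.06), Inha (-0.08), Acvr2a (-0.05), Id1 (-0.11) and Id3 (-0.08). Over the replicate pairs left out, the ranges of those that turned were Wnt2b (-0.01 to 0.60), Sfrp1 (-0.01 to 0.16), Lgr4 (-0.20 to 0.18), Ctnnb1 (-0.29 to 0.03), Notch4 (-0.09 to 0.28), Inha (-0.11 to 0.31), Acvr2a (-0.11 to 0.35), Smad3 (-0.12 to 0.12), Smad4 (-0.08 to 0.11), Smad6 (-0.32 to 0.28), Tgfbrap1 (-0.02 to 0.33) and Id1 (-0.02 to 0.30). On another probe set the values were Ctnnbip1 (0.21), Smad3 (0.11) and Smad4 (-0.58). The Smad4 probe set passed the threshold and the others did not. Signals near background limit what the treated values of Lgr5, the dexamethasone 2 value of Jag1 and the 28 untested genes can show.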
